A study of Arabidopsis thaliana with 12 samples.

Results

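The tau-class glutathione transferase genes (GSTU genes) were followed across 4 genotypes of Arabidopsis thaliana seedlings. Members were the probe sets of the array that the platform annotation assigns to 1 gene whose symbol starts with GSTU and a number. The rule was met by 11 of 22810 probe sets, and the 10 with the highest mean signal were taken, which left out GSTU15 (mean intensity 13.4, against 36.5 for GSTU21, the lowest member). A RefSeq gene table lists 28 tau-class genes, so 10 of 28 are described here and the others were not analysed here. All 10 lay above the filter on low signal used for testing. The members, with their gene codes, are GSTU16 (AT1G59700), GSTU18 (AT1G10360), GSTU20 (AT1G78370), GSTU21 (AT1G78360), GSTU22 (AT1G78340), GSTU23 (AT1G78320), GSTU25 (AT1G17180), GSTU26 (AT1G17190), GSTU27 (AT3G43800) and GSTU28 (AT1G53680).

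Tau-class enzymes belong to a plant-specific class of glutathione transferases, which join the tripeptide glutathione to reactive or foreign molecules such as herbicides and oxidised lipids. Many GSTU genes are known to respond to chemicals, hormones and oxidative stress, and the family grew by tandem duplication, so that close relatives often lie side by side. GSTU25 encodes an enzyme known to conjugate the explosive TNT, and GSTU20 encodes a protein that binds the jasmonate-conjugating enzyme FIN219/JAR1 in far-red light signalling.

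Total RNA of whole seedlings was hybridised to Affymetrix 3' expression arrays, 3 arrays per genotype and 12 in all. The groups were wild type of ecotype Columbia, the mutant sdg8, named for a gene of a histone H3 lysine methyltransferase, the mutant hub2, named for a gene of a ligase that ubiquitinates histone H2B, and the double mutant sdg8hub2, all listed under the same ecotype. Seedlings were 6 days old and were kept at 22 °C under a cycle of 16 h light and 8 h darkness, and the labels list no treatment. They name no alleles, and they call the 3 arrays of a group biological replicates without saying whether these were grown separately, so p-values measure the spread between these samples. The probe sets of SDG8 and HUB2 are unnamed in the annotation, so the mutated genes were not checked here.

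The deposited intensities had a trimmed mean of 500 on every array, with 2% of values trimmed per end, and no 2 arrays held identical values. Within a group, arrays correlated with their partners at a mean r of 0.944 to 0.965 over the 18196 probe sets tested. The difference between the 3' and 5' actin control probe sets, a sign of RNA integrity, was 1.00 to 1.53 on the log2 scale on 11 arrays and 2.06 on hub2 replicate 2. Of the seedling marker lists, 2 green tissue genes (LHCB4.1 and LHCB4.2) and 2 root genes (EXPA7 and EXPA18) were named in the annotation, and all 4 lay above the filter, while no seed storage or flower marker was named. LHCB4.1 lay between 16995 and 25817 intensity units and EXPA18 between 196 and 410 on the 12 arrays. In whole seedlings, fewer cells of a type and less RNA per cell cannot be told apart.

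Among the members, GSTU25 had the largest change that passed the test in each mutant. Its intensity was 321, 385 and 422 on the wild-type arrays, 1434, 1366 and 1501 in sdg8, 610.0, 672 and 635 in hub2, and 1630.0, 1719 and 1412 in sdg8hub2. Wild type was lowest and hub2 stood above it without overlap, and all 6 arrays of sdg8 and sdg8hub2 lay above all hub2 arrays. The mean log2 signal was 8.55 ± 0.20 in wild type, 10.48 ± 0.07 in sdg8, 9.32 ± 0.07 in hub2 and 10.63 ± 0.15 in sdg8hub2 (SD, n = 3 in each). GSTU25 rose 3.83-fold in sdg8, 1.71-fold in hub2 and 4.23-fold in sdg8hub2, with adjusted p of 8.49e-11, 0.000342 and 1.92e-11 (limma, Benjamini-Hochberg over all probe sets tested). Between sdg8hub2 and sdg8 the difference was 0.14 on the log2 scale (SE 0.11), which did not pass (adjusted p = 0.453).

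GSTU22 was the other member that rose in both lines with the sdg8 mutation. Its intensity was 466, 398 and 449 in wild type, 913, 685 and 716 in sdg8, 408, 576 and 503 in hub2, and 716, 824 and 797 in sdg8hub2. The wild-type and hub2 arrays overlapped, and all sdg8 and sdg8hub2 arrays lay above both. GSTU22 rose 1.75-fold in sdg8 and 1.78-fold in sdg8hub2 (log2 changes of 0.81 and 0.83, SE 0.14, limma adjusted p = 0.000249 and 0.000139). In hub2 its log2 change was 0.17 with a 95% interval of -0.11 to 0.45. Against hub2 it was 1.56-fold higher in sdg8 and 1.58-fold higher in sdg8hub2 (adjusted p = 0.00232 and 0.00162), while GSTU25 was 2.24-fold and 2.48-fold higher in the same comparisons.

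GSTU20 rose slightly in both lines with the hub2 mutation. Its intensity was 3856, 4734 and 4314.5 in wild type, 4751, 5179 and 4835 in sdg8, 5191, 5803 and 5491 in hub2, and 5803, 5615 and 5264 in sdg8hub2. All mutant arrays lay above all wild-type arrays. GSTU20 rose 1.28-fold in hub2 and 1.30-fold in sdg8hub2 (log2 changes of 0.36 and 0.37, SE 0.08, limma adjusted p = 0.0236 and 0.00300), and its change of 0.20 in sdg8 did not pass (adjusted p = 0.130). The rise in hub2 was not called without hub2 replicate 2, the array with the high actin difference (0.32, adjusted p = 0.0810), without hub2 replicate 3 (0.36, adjusted p = 0.0657), without wild type replicate 1 (0.28, adjusted p = 0.163) or replicate 3 (0.36, adjusted p = 0.0780), or with the actin difference as a covariate (0.28, adjusted p = 0.168).

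**Figure D1:**
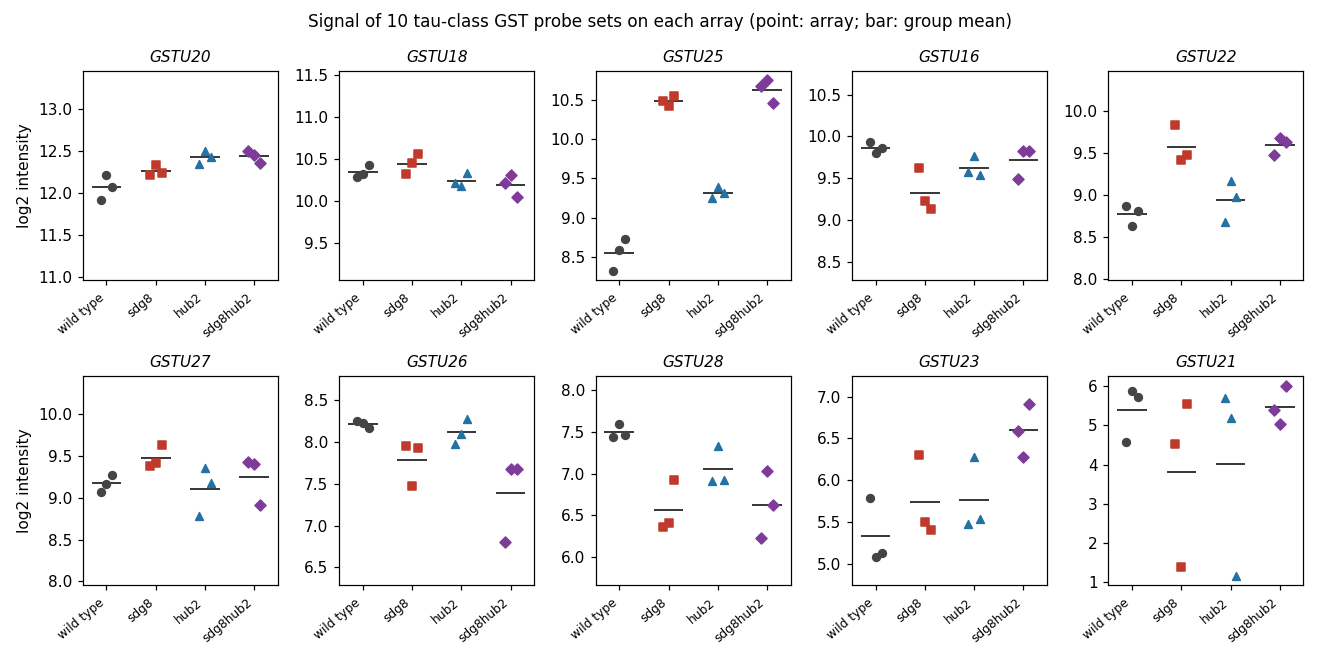
Log2 intensity of each of the 10 members (y axes, at least 2.5 log2 units each, with different origins) on the 12 arrays, by genotype (x axes). Each point is 1 array and each bar a group mean. For GSTU25 the sdg8 and sdg8hub2 arrays stand highest, hub2 between them and wild type, while GSTU21 scatters widely within sdg8 and within hub2.

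GSTU28, GSTU26 and GSTU16 each fell in at least 1 mutant. GSTU28 gave 174, 193 and 176 intensity units in wild type, 82.6, 85.1 and 121 in sdg8, 121, 160.5 and 121 in hub2, and 75.4, 130.5 and 98.9 in sdg8hub2. The sdg8 and sdg8hub2 arrays all lay below wild type. GSTU28 fell 1.91-fold in sdg8 and 1.83-fold in sdg8hub2 (log2 changes of -0.93 and -0.87, SE 0.24, limma adjusted p = 0.01 and 0.0123), and in hub2 its change was -0.45 (adjusted p = 0.401) although those arrays too lay below wild type. Leaving out wild type replicate 2 gave -0.82 in sdg8hub2 (adjusted p = 0.0530) and leaving out sdg8hub2 replicate 1 gave -0.67 (adjusted p = 0.0760), neither of which was called. With log2(intensity + 64), which damps low signals, the changes in sdg8 and sdg8hub2 were -0.62 and -0.58, and both were called.

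GSTU26 gave 303, 299.8 and 287 in wild type, 248, 178 and 243 in sdg8, 251, 274 and 310 in hub2, and 111, 205 and 204 in sdg8hub2. All sdg8 and sdg8hub2 arrays lay below wild type, and sdg8hub2 replicate 1 was the lowest of the 12. GSTU26 fell 1.78-fold in sdg8hub2 (log2 change -0.83, SE 0.20, limma adjusted p = 0.00556), by 0.54 on the log2 scale without sdg8hub2 replicate 1 (adjusted p = 0.0446). Its change of -0.43 in sdg8 did not pass (adjusted p = 0.176), and against hub2 it was 1.66-fold lower in sdg8hub2 (adjusted p = 0.0152), which was not called without that same array (-0.44, adjusted p = 0.110) without hub2 replicate 3 (-0.65, adjusted p = 0.0695) or in a fit without the variance trend (-0.73, adjusted p = 0.0694).

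GSTU16 was lowest in sdg8. Its intensity was 979, 889.7 and 927 in wild type, 789.7, 601 and 561.5 in sdg8, 764, 869 and 745 in hub2, and 721, 908 and 906 in sdg8hub2. The sdg8 and hub2 arrays lay below wild type, whereas the sdg8hub2 arrays overlapped it. GSTU16 fell 1.45-fold in sdg8 (log2 change -0.53, SE 0.13, limma adjusted p = 0.00641), and was at -0.24 in hub2 (adjusted p = 0.410) and -0.15 in sdg8hub2 (adjusted p = 0.483). It was the 1 member of 10 that differed between sdg8hub2 and sdg8 (0.38 higher, adjusted p = 0.0465), where 14.4% of all probe sets were called. That call was lost when any 1 of 9 arrays was left out, with adjusted p up to 0.192.

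GSTU23 and GSTU21 gave low signal. GSTU23 stood at 55.4, 33.8 and 34.9 in wild type, 79.1, 45.2 and 42.5 in sdg8, 44.5, 77.3 and 46.3 in hub2, and 96.6, 77.8 and 120.2 in sdg8hub2, where all 3 arrays lay above wild type and hub2. It rose 2.40-fold in sdg8hub2 (log2 change 1.26, SE 0.39, limma adjusted p = 0.0259), or by 0.62 with log2(intensity + 64), and the call was lost without wild type replicate 2 (1.14, adjusted p = 0.0871), wild type replicate 3 (1.16, adjusted p = 0.0805), sdg8hub2 replicate 1 (1.26, adjusted p = 0.0701) or replicate 3 of that group (1.11, adjusted p = 0.104). GSTU21 ranged from 2.2 intensity units on a hub2 array to 64.7 on a sdg8hub2 array. Its groups overlapped in all 6 comparisons and none of its changes passed.

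GSTU18 and GSTU27 were called in no comparison. GSTU18 lay between 1062 and 1506 intensity units on all 12 arrays, with 95% intervals for its log2 change of -0.11 to 0.30 in sdg8, -0.31 to 0.10 in hub2 and -0.36 to 0.05 in sdg8hub2. From sdg8 to sdg8hub2 its log2 change was -0.25 (95% interval -0.45 to -0.05, limma adjusted p = 0.0946). GSTU27 lay between 439.9 and 790.3. Its log2 changes were 0.30 in sdg8, -0.07 in hub2 and 0.08 in sdg8hub2, and its 3 sdg8 arrays (664, 684 and 790.3) lay above those of wild type (536, 576 and 620.2).

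In counts, 2 of 10 members rose and 2 fell in sdg8, where 14.3% of all probe sets were called, 6.41% higher and 7.86% lower. In hub2, 2 rose and 0 fell, where limma called 2.85%, with 1.4% higher and 1.46% lower, and 0 members were lower at an unadjusted p under 0.05 too (14.8% of all probe sets passed that in either direction). In sdg8hub2, 4 rose and 2 fell, where 18.5% were called, with 8.01% higher and 10.5% lower. The set of 10 was chosen with results of these data known. The median log2 change over the 10 was 0.15, -0.08 and 0.08 in the 3 mutants, against -0.02, 0.00 and -0.05 over all probe sets tested. The 3 comparisons share the wild-type arrays. The sdg8 arrays did not overlap those of wild type for 7 members (31.6% of all probe sets), the hub2 arrays for 4 (21.3%) and the sdg8hub2 arrays for 6 (35.1%). The sdg8 arrays differed from hub2 for 2 members, GSTU25 and GSTU22 (16.1% of all probe sets called), and sdg8hub2 from hub2 for 3, GSTU25, GSTU22 and GSTU26 (17%).

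**Figure D2:**
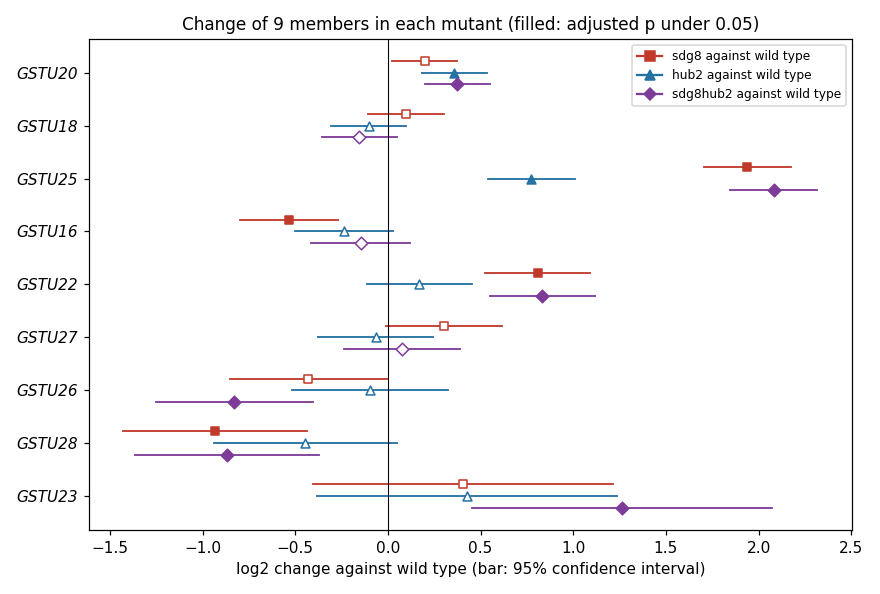
Log2 change against wild type (x axis) of 9 members (rows) in sdg8 (squares), hub2 (triangles) and sdg8hub2 (diamonds), with 95% confidence intervals from the limma fit. Filled symbols passed an adjusted p of 0.05. GSTU25 lies at 1.94, 0.77 and 2.08, and GSTU28 at -0.93, -0.45 and -0.87. GSTU21, whose intervals span over 4 log2 units, is not drawn.

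The paralogs were then compared with each other. For each of the 45 pairs the difference of log2 signal was taken within each array, which cancels any array-wide scaling. An exact permutation test of the F statistic asked whether that difference varied between the 4 genotypes, in any direction. Over the 15400 distinct ways to divide 12 arrays into 4 groups of 3, the smallest p is 6.49e-05. After Benjamini-Hochberg adjustment over the 45 pairs, 24 pairs differed across genotypes. Each member enters 9 pairs, so the pairs are not independent and the change of any member can count repeatedly. Of the 24 pairs, 16 did not include GSTU25. How often pairs of other probe sets differ was not tested, so the count of 24 has no background share to be set against. GSTU25 differed from 8 of its 9 partners, GSTU22 from 7, and GSTU20 and GSTU28 from 6 each, while GSTU21 differed from 0 (its smallest unadjusted p was 0.150). GSTU18 and GSTU27, called in no comparison, gave no difference that passed (exact permutation p = 0.357, adjusted p = 0.423).

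Gene order adds a view of close relatives. It was read only between genes that met the name rule, so genes beyond the ends of a tandem group were not examined. In the RefSeq table of the TAIR10.1 assembly, GSTU25 and GSTU26 are adjacent protein-coding genes on chromosome 1. The difference between these neighbours varied with genotype. Relative to the wild-type mean, the log2 signal of GSTU25 minus that of GSTU26 was 2.20, 2.61 and 2.29 on the sdg8 arrays, 0.95, 0.96 and 0.70 in hub2, and 3.54, 2.74 and 2.46 in sdg8hub2, against -0.25, 0.03 and 0.22 in wild type. No array of a mutant overlapped wild type. The exact permutation test over the 12 arrays gave p = 0.00013 (adjusted p = 0.00117).

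The second tandem group includes GSTU23, GSTU22, GSTU21 and GSTU20 in a row on chromosome 1. Of its members, GSTU22 rose in sdg8 and sdg8hub2, GSTU20 in hub2 and sdg8hub2, and GSTU23 in sdg8hub2. Relative to the wild-type mean, GSTU20 minus GSTU22 was -0.92, -0.38 and -0.54 in sdg8 and -0.28, -0.53 and -0.57 in sdg8hub2. The hub2 arrays stood at 0.37, 0.04 and 0.15, and those of wild type at -0.25, 0.28 and -0.03 (exact permutation p = 0.00818, adjusted p = 0.0205). A difference between GSTU22 and GSTU23 was not shown (exact permutation p = 0.0584, adjusted p = 0.0848), nor one between GSTU20 and GSTU23 (exact permutation p = 0.177, adjusted p = 0.221). GSTU21, at low signal, differed from none of these genes (smallest exact permutation p = 0.380, adjusted p = 0.438).

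Of the 45 pairs, 4 reached the smallest p that the permutations allow. These were GSTU16 with GSTU22, GSTU18 with GSTU25, GSTU25 with GSTU27 and GSTU22 with GSTU26, none of them adjacent genes. GSTU16 minus GSTU22, relative to the wild-type mean, was -1.30, -1.28 and -1.44 in sdg8, -0.19, -0.50 and -0.53 in hub2 and -1.08, -0.95 and -0.91 in sdg8hub2. Each genotype occupied its own range, and the exact permutation test gave p = 6.49e-05, the smallest possible (adjusted p = 0.000731). GSTU25 and GSTU22, which both rose in sdg8, differed in the size of their mean changes. GSTU25 changed more than GSTU22 by 1.13 on the log2 scale in sdg8, 0.60 in hub2 and 1.25 in sdg8hub2. The exact permutation test over the 4 genotypes together gave p = 0.000519 (adjusted p = 0.00292). Each mutant alone was not tested against wild type for this difference.

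**Figure D3:**
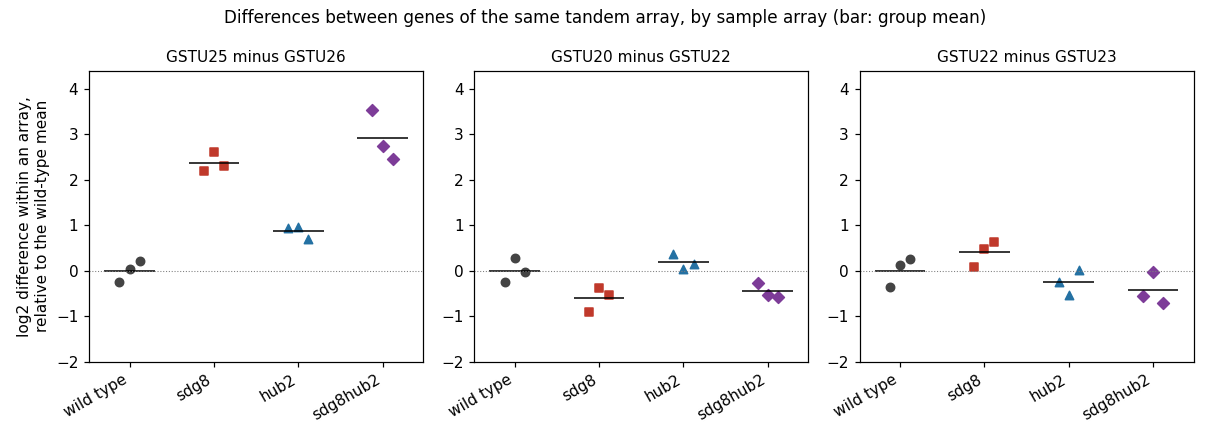
Log2 difference between the signals of 2 genes on the same array, relative to the wild-type mean (y axes), by genotype (x axes), for GSTU25 minus GSTU26, GSTU20 minus GSTU22 and GSTU22 minus GSTU23. Each point is 1 array and each bar a group mean. GSTU25 minus GSTU26 reaches 2.20 to 3.54 in sdg8 and sdg8hub2, while the other differences stay between -0.92 and 0.64.

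With both single mutants and the double mutant at hand, additivity on the log2 scale could be tested for each member. For 8 of 10 members the departure from additivity did not pass, and for 2 it did, against 6.46% of all probe sets. For GSTU25 the single-mutant changes sum to 2.71, and the double mutant stood at 2.08, a departure of -0.63 (95% interval -0.96 to -0.30, limma adjusted p = 0.0193). Leaving out wild type replicate 1, the array with the lowest GSTU25 signal, gave -0.52 (adjusted p = 0.0673), and leaving out sdg8hub2 replicate 3 gave -0.55 (adjusted p = 0.0608). For GSTU16 the sum was -0.77 and the double mutant was at -0.15, a departure of 0.62 (95% interval 0.25 to 1.00, adjusted p = 0.0428), which was not called when any 1 of 9 arrays was left out (0.52 to 0.65, adjusted p up to 0.104). GSTU22 was close to the sum, 0.98 against 0.83 measured, with an interval for the departure of -0.55 to 0.26.

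**Figure D4:**
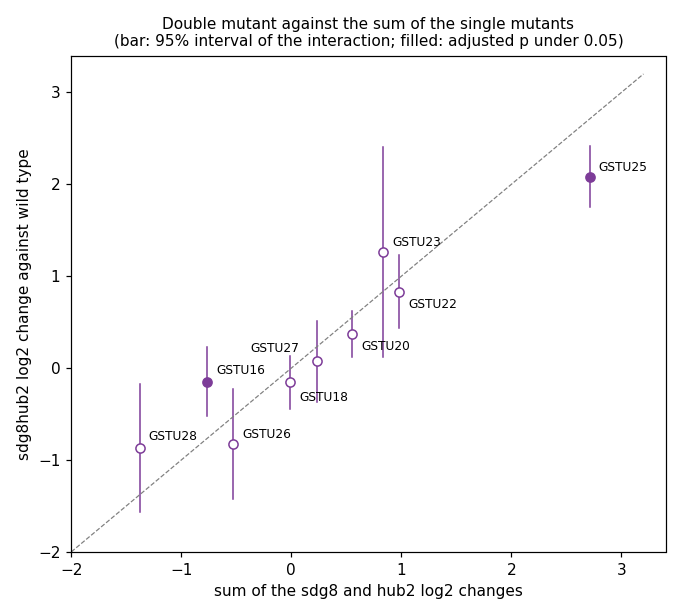
Log2 change of 9 members in sdg8hub2 (y axis) against the sum of their changes in sdg8 and hub2 (x axis). The dashed line marks additive effects, bars are the additive value plus the 95% interval of the departure, and filled points passed an adjusted p of 0.05. GSTU25 lies below the line (2.08 against 2.71) and GSTU16 above it (-0.15 against -0.77).

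Of the rest of the glutathione pathway, 5 genes were named in the annotation and tested, with no glutathione peroxidase and no vacuolar conjugate transporter among them. Members of other transferase classes did not pass in any comparison. These were GSTL3 of the lambda class (2013 to 2964 intensity units on the 12 arrays) and GSTF4 and ATGSTF13 of the phi class (58.6 to 213 and 2.6 to 72.9). Of the 2 glutathione reductase genes, GR1, whose product regenerates reduced glutathione, stood at 1271, 1191 and 1113 in wild type and at 1632, 1582 and 1516 in sdg8hub2. It rose 1.32-fold there (log2 change 0.41, SE 0.09, limma adjusted p = 0.00387) and was 1.45-fold higher than in sdg8 (adjusted p = 0.000512), while GR, the organellar enzyme, lay between 1684 and 2215 on all arrays and did not pass.

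Of 3 genes listed as chemical stress genes, AER, which encodes an alkenal reductase that removes reactive carbonyls, fell in sdg8 and sdg8hub2. Its intensity was 1799, 1976 and 1923 in wild type, 1240.2, 1156 and 1086 in sdg8, 1403, 1777 and 1661 in hub2, and 1094, 1446 and 1268 in sdg8hub2. All mutant arrays lay below wild type. The falls were 1.64-fold in sdg8 and 1.5-fold in sdg8hub2 (log2 changes of -0.71 and -0.59, SE 0.11, limma adjusted p = 8.69e-05 and 0.000512), and its change of -0.24 in hub2 did not pass (adjusted p = 0.300). The glucosyltransferase genes UGT73B4 and UGT73B5 did not pass in any comparison. Over the pathway and stress lists together, 1 of 8 genes was called in sdg8, 0 of 8 in hub2 (1 at an unadjusted p under 0.05 in limma) and 2 of 8 in sdg8hub2. Over all probe sets the shares called were 14.3%, 2.85% and 18.5%, and 14.8% passed the unadjusted threshold in hub2, so the counts of 1 and 2 of 8 are near the background.

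Some marker genes were called against wild type too. The shares called over all probe sets were 14.3% in sdg8, 2.85% in hub2 and 18.5% in sdg8hub2. The root markers EXPA18 and EXPA7 fell in sdg8hub2 (log2 changes of -0.81 and -0.66, limma adjusted p = 0.00108 and 0.0216), and EXPA18 fell in sdg8 (-0.57, adjusted p = 0.0205). Of the green tissue markers, LHCB4.1 rose in sdg8 (0.36, adjusted p = 0.00330), and LHCB4.2 fell in sdg8 (-0.41, adjusted p = 0.00282) and rose in hub2 (0.82, adjusted p = 1.37e-05). Neither LHCB4.1 nor LHCB4.2 was called in sdg8hub2 (-0.03 and -0.16, limma adjusted p = 0.831 and 0.231). EXPA7 did not pass in sdg8 (-0.45, adjusted p = 0.138). In hub2, EXPA18 (-0.43, adjusted p = 0.184), EXPA7 (-0.19, adjusted p = 0.741) and LHCB4.1 (0.07, adjusted p = 0.776) did not pass. The part of tissue make-up in the members' changes was not tested.

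The genes whose pattern was most like that of a member were taken as the 3 named probe sets with the highest Pearson correlation of log2 signal over the 12 arrays. These values are descriptions, since the arrays fall into 4 genotypes. For GSTU25 they were AT2G21130 (r = 0.980, Spearman rho 0.888), AT5G49560 (r = 0.970, rho 0.916) and AT3G01410 (r = 0.967, rho 0.916). For GSTU22 they were AT2G35605, AT1G64370 and AT5G15750, with r from 0.957 to 0.961 and rho from 0.902 to 0.944. For GSTU26 they were AT5G15180 (r = 0.965, rho 0.902), AT1G60610 (r = 0.934, rho 0.692) and RD2 (r = 0.923, rho 0.923).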

How the data were processed

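Gene expression was measured on 12 Affymetrix arrays in 4 groups of 3. The authors deposited linear intensities, 1 column per array, made per the submitters' processing notes with MAS5 and the affy package. The sources used here give neither their versions nor a genome build. Whether a probe set was detected on an array was not assessed, and the number of arrays limits the precision. The labels name an Affymetrix labelling kit and, elsewhere, another manufacturer's labelling procedure.

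From there, values below the 1st percentile (1.18 units) were set to it before log2 was taken. Without 64 control probe sets, the 18196 probe sets with a mean above the 20th percentile (18.6 units) were tested. A group-means model over all 12 arrays was fitted in limma 3.58.1 (R 4.3.3) with an intensity trend, for 7 contrasts, two-sided, with Benjamini-Hochberg adjustment and a call at 0.05. "Rose" and "fell" refer to that call. The fit was tested on simulated data. Probe sets were named from the platform annotation through a RefSeq table of TAIR10.1 (13513 with 1 symbol, 503 with several, 8794 with none), used only for names and gene order. Cross-hybridisation between paralogs was not checked, since probe sequences were not used here. Paralog pairs were compared by exact permutation (Python 3.11.15, numpy 2.4.6).

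Named genes were all members, the pathway list genes called against wild type (up to 4 per list, by p), and per member the 3 probe sets most correlated with it, of which those of 3 members are printed. The uncalled genes of the short lists are named as well, a choice made after their values were seen. The members and lists were chosen with earlier results of these data known. Alternatives covered normalization, filter, log offset, variance model, samples in the fit, array weights, a replicate block and leaving out each array. An actin covariate was added after the data were seen. Same-numbered replicates did not deviate together (r from -0.127 to 0.0363 over 18 pairs), so the numbers were not used as pairs.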

Additional observations from a re-analysis of the deposited data

Results flagged for a closer look

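The effect of losing SDG8 on GSTU25 differed between the 2 HUB2 backgrounds, with an interaction term of -0.63 on the log2 scale (SE 0.16, limma adjusted p = 0.0193): the change was 1.94 with HUB2 intact and 1.31 in the hub2 background. The arrays with and without the sdg8 mutation did not overlap in either background. The GSTU25 interaction was not called without wild type replicate 1 or without sdg8hub2 replicate 3. Nor was it called with median centring or without the variance trend.

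The effect on GSTU16 also differed by background, with an interaction term of 0.62 (SE 0.18, limma adjusted p = 0.0428). It was -0.53 with HUB2 intact and 0.09 in the hub2 background, where the arrays overlapped. The GSTU16 interaction was not called when any 1 of 9 arrays was left out (limma adjusted p up to 0.104). Nor was it called with the replicate block or without the variance trend.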

How the results depend on the processing

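Calls for GSTU25, GSTU22, GSTU28 and GSTU16 in sdg8, for GSTU25 in hub2 and for GSTU25, GSTU22, GSTU20 and GSTU26 in sdg8hub2 kept their direction and side of the threshold under every alternative in which the gene was tested. The filter at the 50th percentile left 7 of 10 members tested and gave no value for GSTU28, GSTU23 and GSTU21, so that 3 members in place of 4 were called in sdg8 and 4 in place of 6 in sdg8hub2. Over all contrasts, single-gene results kept theirs in 773 of 804 alternative fits and 851 of 912 fits with 1 array left out. These totals include results that were not called to begin with. They also include fits without an array of a group not compared, which cannot change the estimate. The shares therefore do not measure how stable the calls are. A called result was no longer called in 18 of the alternative fits and 36 of those with 1 array left out. The number of pairs of paralogs called was 24 to 27 under other scalings and 18 to 27 with 1 array left out. Median centring, which is among those scalings, cancels in a difference within an array and could not change the number. In hub2, 519 probe sets were called, against 341 with median centring, 127 without the variance trend, 835 with array weights, 233 with the actin covariate and 210 to 553 with 1 array left out, and 1 member in place of 2 with median centring, without the trend and with the covariate (1 to 2 with 1 array left out). Between sdg8hub2 and sdg8, 0 members were called in place of 1 with no filter, without the trend, with array weights, with only the groups compared and with the replicate block (0 to 1 with 1 array left out). For the interaction, 530 probe sets were called without the trend in place of 1175. Called members there were 1 with median centring or the replicate block, 0 without the trend, and 0 to 2 with 1 array left out. With the replicate block, GSTU16 had an adjusted p of 0.0575 between sdg8hub2 and sdg8 and 0.0535 for the interaction, and the block changed no other call of a member. GSTU25 had an interaction of -0.61 with median centring (adjusted p = 0.0520) and -0.63 without the trend (adjusted p = 0.0815). GSTU23 in sdg8hub2 had an adjusted p of 0.0532 with no filter. GSTU20 in hub2 had an adjusted p of 0.0931 with median centring and 0.148 without the trend, where GSTU16 had 0.149 for the interaction. GSTU27 between sdg8 and hub2 was called with the covariate (0.58, adjusted p = 0.00716) and without hub2 replicate 2 (0.50, adjusted p = 0.0362), and GSTU16 there without sdg8 replicate 1 (-0.44, adjusted p = 0.0219). Pathway list genes called between sdg8hub2 and hub2 were 1, against 2 with no filter, the 50th percentile filter or array weights, 0 without the trend, with the covariate or with only the groups compared, and 0 to 2 with 1 array left out. Between sdg8 and hub2 they were 1, against 2 with quantile normalization and both other filters. With 1 array left out they were 1 to 2 there, in sdg8 and between sdg8hub2 and sdg8, and 0 to 1 for the interaction. Median centring moved the share of probe sets called higher from 44.9% to 56.5% in sdg8, from 43.3% to 57.4% in sdg8hub2, from 42.1% to 59.2% between sdg8hub2 and hub2, and from 45.7% to 59.2% between sdg8 and hub2. Differences that were not called turned sign as follows. In sdg8hub2 against wild type the covariate gave -0.0078 for GSTU27 and -0.077 for GSTU21. Between sdg8hub2 and sdg8, array weights gave -0.0024 for GSTU22. Between sdg8hub2 and hub2, quantile normalization gave -0.0032 for GSTU20 and median centring 0.034 for GSTU18. Between sdg8 and hub2, GSTU23 was at 0.030 with quantile normalization, 0.046 with median centring, 0.15 with array weights and 0.063 with the covariate, and GSTU21 at 0.15 with array weights and 0.20 with the covariate. The covariate gave 0.046 for the interaction of GSTU27. With 1 array left out, GSTU27 ranged from -0.19 to 0.095 in hub2, from -0.016 to 0.24 in sdg8hub2, from -0.019 to 0.31 between sdg8hub2 and hub2 and from -0.32 to 0.0079 for the interaction. GSTU21, at -1.37 in hub2 over all arrays, ranged there from -2.21 to 0.057, the latter without hub2 replicate 3. It ranged from -0.33 to 0.33 in sdg8hub2 and from -1.63 to 1.02 between sdg8 and hub2, where GSTU23 ranged from -0.31 to 0.23. Between sdg8hub2 and sdg8, GSTU22 ranged from -0.056 to 0.15 and GSTU28 from -0.14 to 0.26. Between sdg8hub2 and hub2, GSTU20 ranged from -0.023 to 0.057 and GSTU18 from -0.11 to 0.019. The cause of these changes was not tested.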
